A study of Homo sapiens with 6 samples.

Results

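NRF2 targets and antioxidant enzymes were followed as 36 listed genes, of which 35 had at least 1 probe set naming that gene alone. FTH1 had none and was not analysed here. Each of the others was read from its probe set with the highest mean over the arrays. These 35 genes, of 19775 with such a probe set, were compared between MDA-MB-231 cells given 50 µM TCI04 for 48 h and cells given PBS for 48 h. Each group held 3 arrays. MDA-MB-231 is an established human triple-negative breast cancer cell line, TCI04 is known here by its code name only, and PBS is a saline vehicle. Both groups were grown in DMEM with fetal bovine serum and carried no other agent or genetic change in the labels. The labels describe 1 cell line and leave unsaid whether each array had a culture of its own, so the spread that the p-values rest on may be technical.

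NRF2, encoded by NFE2L2, is a transcription factor of the response to oxidants and electrophiles. In unstressed cells KEAP1 holds it and presents it to a CUL3 ubiquitin ligase for degradation. When reactive compounds modify KEAP1, NRF2 accumulates, pairs with a small MAF protein and binds antioxidant response elements near genes for glutathione synthesis, thioredoxin reduction, quinone reduction, heme breakdown, iron storage and NADPH supply. Because NRF2 is controlled largely through its stability, its mRNA need not follow its activity, and the mRNA of its targets is the usual transcript readout. High NRF2 activity is known in tumours for its part in resistance to drugs and radiation.

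The core of the antioxidant response element is written TGACNNNGC, where N is any base. It was searched on both strands of the RefSeq promoter windows of GRCh38.p14, which run from 250 bases before to 50 bases after each listed gene start. Of the 36 genes, 29 matched a window by symbol. FTH1, HMOX1, PRDX1, PRDX6, SOD1, GSR and AKR1B10 did not. At least 1 match lay in the windows of 10 of these 29 genes (34.5%): EPHX1, GCLM, GPX2, GSTP1, KEAP1, ME1, MGST1, PGD, PIR and TXNRD1. Among all 27305 genes with a window the share was 16.1%. The stricter form TGACTCAGC, one of the sequences that TGACNNNGC covers, and which also holds the AP-1 site TGACTCA, was present for GSTP1, ME1 and PIR (10.3%) and for 0.689% of all genes. A gene with several listed starts has several windows, so counts per gene depend on the number of starts. A match does not show that a factor binds there. Sequence outside the windows was not searched, so a gene without a match may still have the element elsewhere. The matches before the start are shown for GCLM, TXNRD1 and KEAP1, whose signals are given on every array, and for ME1 and GSTP1, which hold the stricter form, at the first listed start with such a match. Each line is the gene's own strand, 5′ to 3′, with the match in capitals. For GCLM, and for the second match of KEAP1, the motif reads on the opposite strand. The match opens 34 bases before the start for GCLM, 99 for TXNRD1, 54 and 31 for KEAP1, 137 for ME1 and 66 for GSTP1.
GCLM, chr1:93909440-93909480, minus strand: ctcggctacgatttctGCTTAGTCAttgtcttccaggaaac
TXNRD1, chr12:104215664-104215704, plus strand: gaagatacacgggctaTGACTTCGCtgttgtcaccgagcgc
KEAP1, chr19:10502778-10502841, minus strand: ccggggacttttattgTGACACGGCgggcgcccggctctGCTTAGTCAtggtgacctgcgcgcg
ME1, chr6:83431164-83431204, minus strand: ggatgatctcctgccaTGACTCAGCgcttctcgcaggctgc
GSTP1, chr11:67583730-67583770, plus strand: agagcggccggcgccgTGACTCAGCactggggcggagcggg

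The values are MAS5 signals, linear intensities that combine the probes within a probe set, and the authors had scaled them to the same trimmed mean on every array. TCI04 and PBS arrays correlated with each other by 0.931 to 0.940 (Spearman, across probe sets), and arrays of the same group by 0.932 to 0.938. The mesenchymal markers of this line (VIM, CD44, AXL, CAV1 and SPARC) summed to 79851 to 81617 in the TCI04 arrays and 79272 to 85033 in the PBS arrays. The 7 luminal markers summed to 2102 to 3180 in the TCI04 arrays and 2856 to 3380 in the PBS arrays. Of these, ESR1, GATA3, FOXA1, EPCAM and KRT19 lay above the filter on dim probe sets, while PGR and CDH1 lay below it. Leukocyte, endothelial and fibroblast markers had 2 of 4, 2 of 4 and 2 of 5 measured genes above it. The 4 leukocyte markers summed to 113 to 195 in the TCI04 arrays and 136 to 249.98 in the PBS arrays, with PTPRC and CD14 below the filter. Among them ITGAM had 39.5, 33.6 and 38.9 in the TCI04 arrays, all below 77.1, 76.5 and 82.8 in the PBS arrays, a log2 fold change of -0.90 (limma, adjusted p = 0.697, unadjusted p = 0.00622). CD14 went the other way, with 20.3, 19.0 and 27.1 in the TCI04 arrays, all above 7.79, 3.43 and 15.1 in the PBS arrays. For PTPRC and CD3E the groups overlapped. The 4 endothelial markers summed to 211 to 251 in the TCI04 arrays and 277 to 284 in the PBS arrays, with VWF and CDH5 below the filter. PECAM1 had 172, 141 and 171 in the TCI04 arrays, all below 191, 186 and 184 in the PBS arrays. The 5 fibroblast markers summed to 499 to 686 in the TCI04 arrays and 592 to 603 in the PBS arrays. Among them COL1A2, below the filter, had 6.52, 31.9 and 4.74 in the TCI04 arrays, all below 56.3, 80.2 and 48.2 in the PBS arrays. For the other endothelial and fibroblast markers the groups overlapped. The part of these differences in the results was not tested. TCI04 replicate 3 stood apart in its ratio of 3′ to 5′ ACTB control signal. It was 3.33, against 1.70 and 1.71 in the other TCI04 arrays and 1.64 to 1.72 in the PBS arrays. The same ratio for GAPDH differed less, at 1.21 in that array, 0.97 and 1.08 in the other TCI04 arrays and 0.98 to 1.07 in the PBS arrays.

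The comparison asked whether TCI04 changed the transcripts of this defence system. None of the 35 genes passed the adjusted threshold of 0.05 (limma, Benjamini-Hochberg over 32746 probe sets), where 0.00731% of all 13674 genes tested did. The smallest adjusted p of a member was 0.697 in limma. All 35 lay above the filter on dim probe sets. Signals were analysed as log2(signal + 10.96), and fold changes on this scale understate the change of dim probe sets. Of the 35 genes, 16 (45.7%) had a higher and 19 (54.3%) a lower mean with TCI04, against 49.4% and 50.6% of all genes, with a median log2 fold change of -0.0051, beside -0.0025 over all genes. Of the members, 18 lay in the brightest 10% of tested probe sets, and of these 6 (33.3%) had a higher and 12 a lower mean, with a median of -0.011. All 2167 genes of that brightness had a higher mean in 58.5% of cases and a median of 0.015. After quantile normalization, 19 had a higher and 16 a lower mean, and with arrays centred on their medians, which added the same 0.16 to every log2 fold change, 30 had a higher and 5 a lower mean. At an unadjusted p under 0.05 there was 1 member (2.86%), against 7.05% of all genes. The TCI04 and PBS arrays did not overlap for 2 members, GCLM and FTL (5.71%), against 13.6% of all genes. GCLM was the 1 member with every TCI04 array above PBS (2.86%, against 6.66% of all genes), and FTL the 1 with every TCI04 array below PBS (2.86%, against 6.91%).

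Under the authors' scaling, the intervals show how large a change these arrays leave room for. On the chosen probe set, the whole 95% interval of the fold change lay within 1.5-fold in either direction for 29 of the 35 genes. For 32 it lay within 2-fold. The shares over all genes were 66.5% and 86.1%. Other tested probe sets of some of the 29 reached further. They gave -0.81 to -0.020 and -1.09 to 0.083 for TKT, -0.92 to 0.28 on 1 for PRDX2 and -0.12 to 0.64 on 1 for MGST1. The 6 genes with wider intervals were OSGIN1, EPHX1, PGD, AKR1B10, AKR1C2 and GPX2, of which all but PGD had mean signals under 121 in both groups. From the estimate to either end, the interval reached a median of 0.17 on the log2 scale over the members and 0.28 over all genes. As a set the members were brighter. The brightest probe sets, as set apart above, held 18 of the 35, against 2167 of all 13674 genes. Whether members had narrower intervals than equally bright genes was not tested. The intervals also leave out the choice of scaling, where median centring alone added 0.16 to every log2 fold change. In bulk samples, fewer cells carrying a transcript and less of it per cell cannot be told apart.

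**Figure D1:**
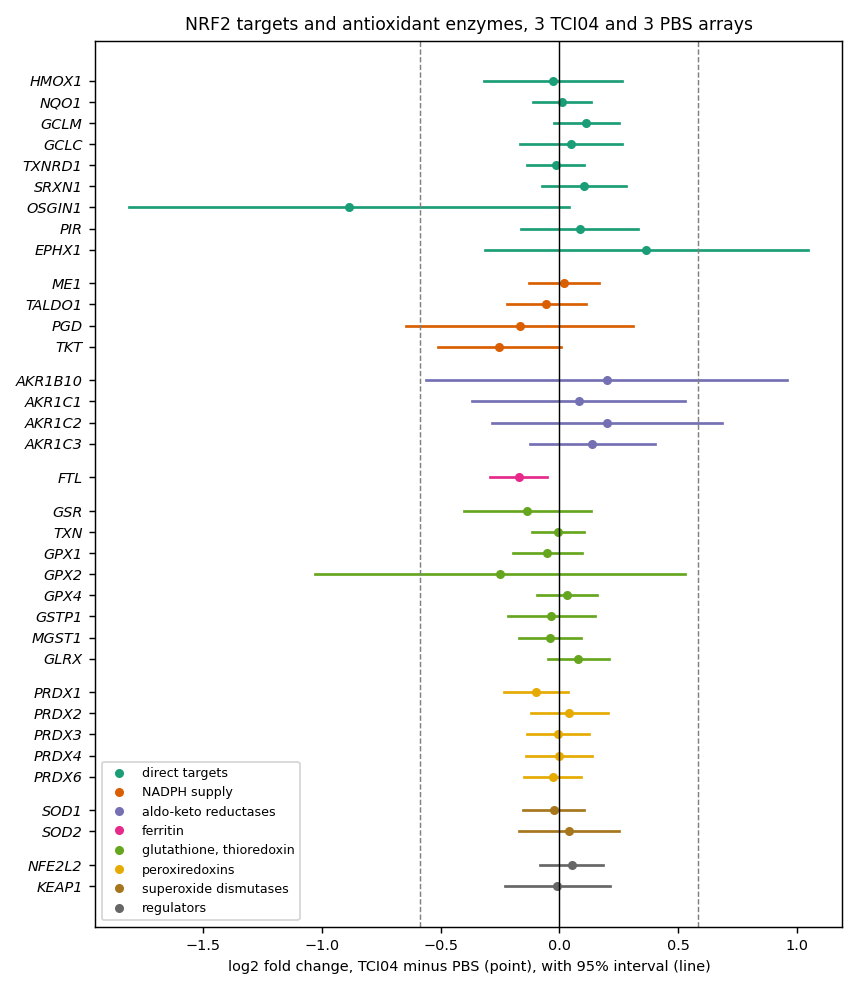
Log2 fold change (TCI04 minus PBS, horizontal axis) of the 35 genes in rows, coloured by role, as points with 95% intervals from limma as lines; 3 arrays per group. Dashed lines mark 1.5-fold in each direction. The intervals of 34 genes cross 0, FTL being the exception, and 29 lie between the dashed lines.

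Among the enzymes that NRF2 is best known for inducing, GCLM was the one whose TCI04 arrays all lay above the PBS arrays. GCLM is the modifier subunit of glutamate-cysteine ligase, which makes the first step of glutathione synthesis. Its signal was 5513, 6019.6 and 5315 in the TCI04 arrays, against 5176, 5207 and 5160.2 in the PBS arrays. Every TCI04 array lay above every PBS array, with a narrow gap between 5315 and 5207. GCLM had a log2 fold change of 0.11 (SE 0.062) and an interval of -0.024 to 0.25, and it did not pass (limma, adjusted p = 0.705). The GCLM value shrank to 0.063 when TCI04 replicate 2 was left out, and was 0.11 to 0.15 when any one of the other arrays was. The other probe sets of GCLM gave 0.19 and -0.041. The catalytic subunit of the same enzyme, GCLC, had signals of 1874, 1531 and 1897 in the TCI04 arrays, against 1762, 1562 and 1786 in the PBS arrays. Here the groups overlapped, and the log2 fold change was 0.049 (-0.17 to 0.26), while its other tested probe set gave -0.18.

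HMOX1, heme oxygenase 1, which breaks down heme and is induced by many electrophiles and by heme itself, had signals of 295, 349 and 288 in the TCI04 arrays, against 306, 342 and 299.8 in the PBS arrays. The TCI04 arrays covered the range of the PBS arrays, and the log2 fold change was -0.026 with an interval of -0.32 to 0.26. NQO1, the quinone reductase used as a reference readout of NRF2, had signals of 12215, 11998 and 11154 in the TCI04 arrays, against 11533, 11724 and 11824 in the PBS arrays. All 3 PBS arrays fell inside the span of the TCI04 arrays. Its log2 fold change was 0.011 (-0.11 to 0.13), and the other probe sets gave 0.010 and 0.042.

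TXNRD1, the selenoprotein that reduces cytosolic thioredoxin, had signals of 10518, 10737 and 10109.8 in the TCI04 arrays, against 10433, 10257 and 11031 in the PBS arrays. The groups overlapped, and the log2 fold change was -0.016 (-0.14 to 0.11). For SRXN1, sulfiredoxin, which restores overoxidised peroxiredoxins, the signals were 1629.9, 1821 and 1676 in the TCI04 arrays, against 1467, 1659 and 1648 in the PBS arrays. PBS replicate 1 was the lowest of the 6 arrays, and the other PBS arrays lay within the span of the TCI04 arrays. Its log2 fold change was 0.10 (-0.075 to 0.28). PIR, the iron-binding protein pirin, had a log2 fold change of 0.085 (-0.16 to 0.33).

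OSGIN1, an oxidative stress-induced growth inhibitor, and EPHX1, the microsomal epoxide hydrolase, were dim. OSGIN1 measured 38.0, 39.9 and 13.4 in the TCI04 arrays, against 34.3, 83.0 and 78.7 in the PBS arrays. The groups overlapped through PBS replicate 1, and TCI04 replicate 3 was the lowest array. The log2 fold change was -0.88 with a wide interval of -1.81 to 0.043 (limma, adjusted p = 0.697), and with 1 array left out it ranged from -1.22 without PBS replicate 1 to -0.54 without TCI04 replicate 3. The OSGIN1 value also moved with the number added before taking log2, to -1.12 with 1 and -0.45 with the median of all values. EPHX1 averaged 89.8 ± 19.2 with TCI04 and 69.6 ± 26.3 with PBS (SD, n = 3 each), with a log2 fold change of 0.37 (-0.32 to 1.05), and its lowest array was PBS replicate 1 at 39.3. Leaving out 1 array at a time moved the EPHX1 value from 0.058 without PBS replicate 1 to 0.54 without PBS replicate 3.

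**Figure D2:**
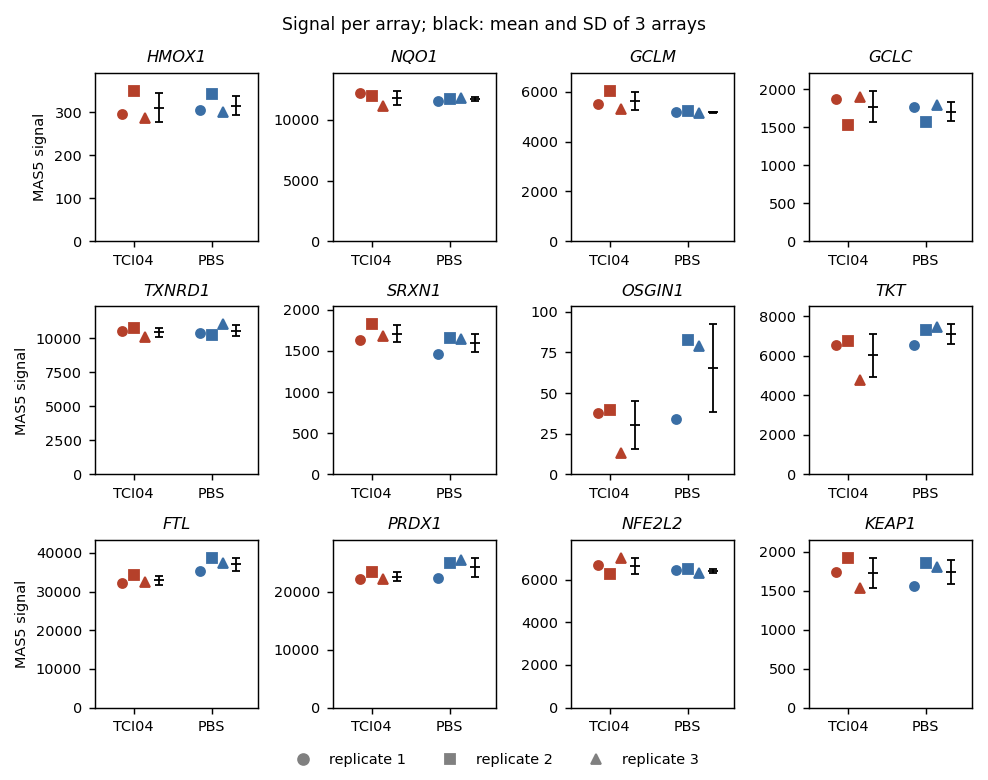
MAS5 signal (vertical axis, linear, from 0) of 12 members on each array, TCI04 left and PBS right in each panel; marker shapes are replicates 1, 2 and 3, and black bars are the mean and SD of 3 arrays. GCLM and FTL are the panels in which the groups do not overlap. TCI04 replicate 3 is the lowest array for HMOX1, NQO1, TXNRD1, OSGIN1, TKT and KEAP1.

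Neither regulator passed the adjusted threshold. NFE2L2, which encodes NRF2 itself, had signals of 6665, 6284 and 7036 in the TCI04 arrays, against 6456, 6491 and 6302 in the PBS arrays. TCI04 replicate 2 was the lowest and TCI04 replicate 3 the highest of the 6 arrays, and the log2 fold change was 0.053 (-0.080 to 0.18). Its dimmer probe sets gave 0.20 and -0.15. KEAP1, its inhibitor, had signals of 1743, 1922 and 1534 in the TCI04 arrays, against 1559, 1859.8 and 1803 in the PBS arrays. The groups overlapped almost fully, with a log2 fold change of -0.008 (-0.23 to 0.21).

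Glutathione reductase and thioredoxin reductase consume NADPH. The group listed under NADPH supply held PGD and ME1, which make it, and TKT and TALDO1, non-oxidative pentose phosphate enzymes that do not. Means were lower for 3 of these 4 (TKT, PGD and TALDO1), and for 4 of 4 after quantile normalization, while TALDO1 turned higher with median centring. PGD and ME1 had opposite signs in the main fit. TKT, the transketolase of the non-oxidative pentose phosphate pathway, had signals of 6532, 6760.2 and 4768 in the TCI04 arrays, against 6554, 7292 and 7468 in the PBS arrays. TCI04 replicate 3 was well below the other 5 arrays. TKT had a log2 fold change of -0.25 (SE 0.12) and an interval of -0.51 to 0.006 (limma, adjusted p = 0.697), and it was -0.094 without that array. The other probe sets of TKT gave -0.42 and -0.50. On the first of these, TCI04 replicate 3 was again the lowest array, at 1521 against 2593 and 2710.4 in the other TCI04 arrays. The second, a dim one, had 46.7, 65.5 and 44.2 in the TCI04 arrays, all below 66.7, 84.3 and 83.0 in the PBS arrays (limma, adjusted p = 0.702).

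PGD, which makes NADPH as 6-phosphogluconate dehydrogenase, showed the same array apart. Its signals were 1077, 1140.5 and 601 in the TCI04 arrays, against 829.7, 1171 and 1079 in the PBS arrays. The other TCI04 arrays lay within the PBS range, and the log2 fold change of -0.17 (-0.64 to 0.31) turned to 0.12 without TCI04 replicate 3. That array is the one with the high 3′ to 5′ ACTB ratio, and the part of RNA quality in these values was not tested. TALDO1, transaldolase, averaged 9115 ± 329 with TCI04 and 9495 ± 994 with PBS (SD, n = 3 each), a log2 fold change of -0.054. ME1, the cytosolic malic enzyme, averaged 1934 ± 42.9 with TCI04 and 1907 ± 61.4 with PBS, a log2 fold change of 0.020.

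All 4 aldo-keto reductases had a higher mean with TCI04, also after quantile normalization, and for none did the arrays separate. The sign rested on single arrays for AKR1C1, which gave -0.12 without TCI04 replicate 3 and -0.033 without PBS replicate 2, and for AKR1B10, which gave -0.069 without PBS replicate 2. These enzymes reduce aldehydes, ketones and steroids. AKR1C3 averaged 622 ± 41.8 with TCI04 and 566 ± 77.1 with PBS (SD, n = 3 each), a log2 fold change of 0.14 with an interval of -0.13 to 0.40. AKR1B10 averaged 67.7 ± 17.6 with TCI04 and 59.9 ± 28.3 with PBS, a log2 fold change of 0.20 (-0.56 to 0.96). AKR1C1 and AKR1C2 are near-identical genes, and both were read from probe sets ending in _x_at, which can hybridise to related transcripts, so their signals are uncertain. Their log2 fold changes were 0.081 and 0.20, and the other tested probe set of each had the opposite sign, at -0.065 and -0.17.

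FTL, the light chain of ferritin that stores iron, was the member with the smallest p. Its signal was 32127, 34335 and 32405 in the TCI04 arrays, against 35247, 38637 and 37451 in the PBS arrays. Every TCI04 array lay below every PBS array, with 34335 as the highest TCI04 and 35247 as the lowest PBS signal. FTL averaged 32956 ± 1203 with TCI04 and 37112 ± 1720.4 with PBS (SD, n = 3 each). On the log2 scale it had a fold change of -0.17 (SE 0.054) and an interval of -0.29 to -0.051, with an unadjusted p of 0.0095, and it failed the correction (limma, adjusted p = 0.697). The second FTL probe set gave -0.20, with overlapping groups. After quantile normalization, which removes differences between arrays that depend on the signal level, the log2 fold change was -0.051. Both FTL probe sets end in _x_at, and ferritin genes have many processed pseudogenes, so the transcripts they measure are uncertain.

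In the glutathione and thioredoxin system, 2 of 8 enzymes had a higher and 6 a lower mean, with log2 fold changes from -0.25 to 0.080. TXN turned higher after quantile normalization, and TXN, GSR, GPX1, GSTP1 and MGST1 did so with median centring. GSR, which regenerates reduced glutathione, measured 756, 729 and 579.6 in the TCI04 arrays, against 678, 769.6 and 813 in the PBS arrays. TCI04 replicate 3 was the lowest array. The log2 fold change of GSR was -0.13 (-0.40 to 0.13), and -0.018 without that array. TXN, thioredoxin, averaged 24158 ± 458 with TCI04 and 24258 ± 803 with PBS (SD, n = 3 each), and its log2 fold change of -0.006 had an interval of -0.12 to 0.10. The glutathione peroxidases are selenoproteins that reduce peroxides. GPX1 gave -0.050 (-0.20 to 0.10) on the log2 scale, and GPX4, which reduces lipid peroxides and guards against ferroptosis, gave 0.032 (-0.10 to 0.16). GPX2, a form typical of the gut epithelium, was dim at 60.1 ± 27.5 with TCI04 and 72.6 ± 26.7 with PBS and its interval was wide (-1.03 to 0.53). GSTP1, a glutathione transferase, averaged 2434 ± 123 with TCI04 and 2498 ± 239.6 with PBS, a log2 fold change of -0.034. The microsomal transferase MGST1 gave -0.039, and -0.002 to 0.26 over its other tested probe sets. GLRX, glutaredoxin, averaged 6712 ± 87.1 with TCI04 and 6353 ± 313 with PBS, a log2 fold change of 0.080 (-0.048 to 0.21).

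The peroxiredoxins, abundant thiol peroxidases, had log2 fold changes from -0.10 to 0.043. PRDX1, the cytosolic member whose gene is an NRF2 target, had signals of 22129.8, 23451 and 22232 in the TCI04 arrays, against 22286, 24889 and 25449.5 in the PBS arrays. PBS replicate 1 lay among the TCI04 arrays, below the other PBS arrays. Its log2 fold change was -0.10 (-0.23 to 0.038, limma, adjusted p = 0.723). The mitochondrial PRDX3 and the endoplasmic reticulum PRDX4 gave -0.005 and -0.003, and PRDX6 gave -0.028. The second, dimmer PRDX3 probe set had 151, 155 and 153 in the TCI04 arrays, all above 145, 126 and 136 in the PBS arrays, a log2 fold change of 0.17 (limma, adjusted p = 0.817). For PRDX2 the chosen probe set gave 0.043 (-0.12 to 0.20) and the others parted from -0.32 to 0.32. On the last of these every TCI04 array, at 2195, 2177 and 2177, lay above every PBS array, at 1898, 1426 and 1976 (limma, adjusted p = 0.697). The second PRDX6 probe set went the other way, with 11368, 11476 and 11545 in the TCI04 arrays, all below 12094, 13074 and 13089 in the PBS arrays, a log2 fold change of -0.15 (limma, adjusted p = 0.697).

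Of the superoxide dismutases, the cytosolic SOD1 averaged 19103 ± 450.3 with TCI04 and 19449 ± 1170.4 with PBS (SD, n = 3 each), a log2 fold change of -0.024 (-0.15 to 0.10). The mitochondrial SOD2, a target of NF-kB as well, averaged 795 ± 34.2 with TCI04 and 774 ± 67.9 with PBS, a log2 fold change of 0.040 (-0.17 to 0.25). Both had overlapping groups and intervals within 1.5-fold.

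The probe sets of 1 gene did not always give the same sign. The 35 genes had 70 probe sets, 35 of them not the chosen one, and 26 of those passed the filter. Of the 26, 16 had the sign of the chosen probe set and 10 the opposite sign. None passed the adjusted threshold of 0.05 in limma. At an unadjusted p under 0.05 there were 5 of the 26 (19.2%), against 7.08% of all 32746 probe sets, and the groups did not overlap for 4 (15.4%), against 13.5%. Probe sets of 1 gene were read on the same arrays and can share transcripts, though not all need to, so they are not independent of each other. NQO1, TXN, GLRX and FTL stayed close together across probe sets. The tested probe sets of GCLM, GCLC, AKR1C1, AKR1C2, MGST1, PRDX2, PRDX3 and NFE2L2 lay on both sides of 0.

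**Figure D3:**
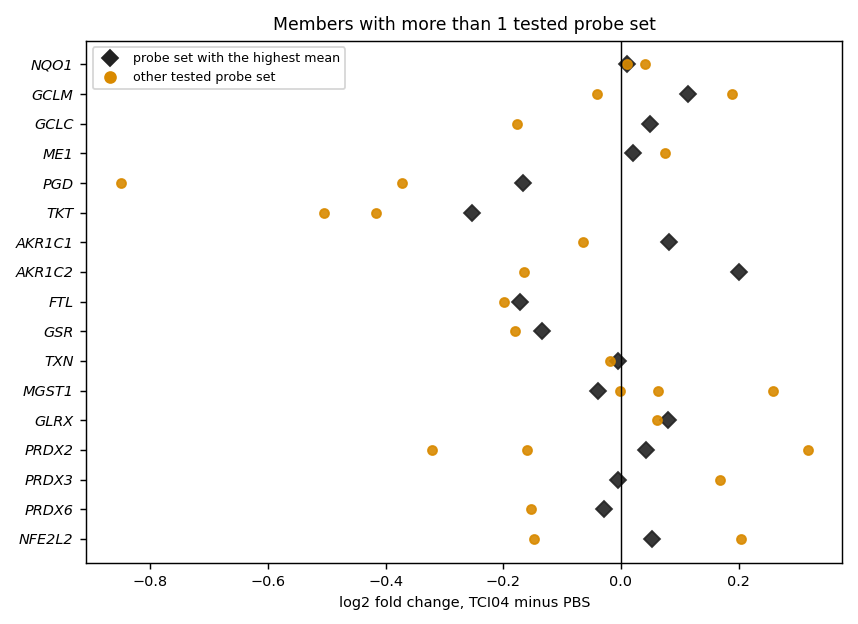
Log2 fold change (TCI04 minus PBS, horizontal axis) of every tested probe set of the 17 members with more than 1, black diamonds for the probe set with the highest mean and orange points for the others. Of the 26 others, 10 lie on the opposite side of 0 from their diamond. All TKT, PGD, FTL, GSR, TXN and PRDX6 probe sets shown lie below 0, and all those of NQO1, ME1 and GLRX above 0.

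PBS replicate 1 was the lowest PBS array for 23 of 35 members (65.7%), against 36.0% of all genes. PBS replicate 2 was so for 9 members (25.7%, against 34.4%) and PBS replicate 3 for 3 (8.57%, against 29.6%). Among the TCI04 arrays, replicate 3 was the lowest for 15 members (42.9%, against 30.4% of all genes), replicate 1 for 13 (37.1%, against 33.9%) and replicate 2 for 7 (20%, against 35.7%). The median signal of all probe sets was 58.9 to 59.8 in the TCI04 arrays and 74.3, 64.0 and 64.8 in PBS replicates 1, 2 and 3, so PBS replicate 1 was the highest. The median of the members relative to the PBS mean was -0.0054, 0.028 and 0.006 on the log2 scale in TCI04 replicates 1, 2 and 3, against -0.075, 0.040 and 0.055 in PBS replicates 1, 2 and 3. The spread among the PBS arrays was thus wider than the difference between the groups. Without PBS replicate 1 the member median was -0.025, and 0 members passed.

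Other genes of the pathway were read from 4 lists, none of which held a gene past the adjusted threshold. Among 16 tested partners and regulators of NRF2, 10 had a higher and 6 a lower mean. All TCI04 arrays lay above PBS for 1 of the 16 and below for 1, against 6.66% and 6.91% of all genes. BTRC, which marks NRF2 for degradation outside the KEAP1 route, had the smallest p, with 669, 664 and 641 in the TCI04 arrays, against 538, 569.9 and 586 in the PBS arrays. Every TCI04 array lay above every PBS array, with a log2 fold change of 0.22 (limma, adjusted p = 0.697). RBX1, the RING subunit of the CUL3 ligase, had a log2 fold change of 0.008.

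In the list of other reported NRF2 targets, 17 of 22 with a probe set passed the filter, and 10 had a higher and 7 a lower mean. The groups did not overlap for 6 of the 17, where 13.6% of all genes did not. ABCC3, an efflux transporter of glucuronides and bile acids, had signals of 252, 215 and 245 in the TCI04 arrays, against 159, 103 and 177 in the PBS arrays. All TCI04 arrays were higher, with a log2 fold change of 0.69 and an interval of 0.24 to 1.14, and it failed the correction (limma, adjusted p = 0.697, unadjusted p = 0.0065). SLC7A11, the cystine importer that feeds glutathione synthesis, measured 6695, 6615 and 6985 in the TCI04 arrays, against 6666, 6238 and 6177 in the PBS arrays. PBS replicate 1 lay among the TCI04 arrays, and the log2 fold change was 0.089 (-0.038 to 0.22).

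Of 27 tested other glutathione, thioredoxin and peroxide enzymes, 15 had a higher and 12 a lower mean, and the median was 0.035. All TCI04 arrays lay above PBS for 2 of the 27 and below for 0, against 6.66% and 6.91% of all genes. MSRB3, a methionine sulfoxide reductase, averaged 2955 ± 167 with TCI04 and 2579 ± 181 with PBS (SD, n = 3 each). Its TCI04 arrays all lay above the PBS arrays, with a log2 fold change of 0.20 (limma, adjusted p = 0.697). PARK7, the oxidant-sensing protein DJ-1, gave -0.042. In heme and iron handling, 7 of 11 had a higher and 4 a lower mean. All TCI04 arrays lay above PBS for 1 of the 11 and below for 1, against the same shares of all genes. The transferrin receptor TFRC, which brings iron into the cell, measured 22166, 20618 and 23047 in the TCI04 arrays, against 24293, 23405 and 23571 in the PBS arrays. The TCI04 arrays all lay below the PBS arrays, a log2 fold change of -0.12 (limma, adjusted p = 0.697).

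**Figure D4:**
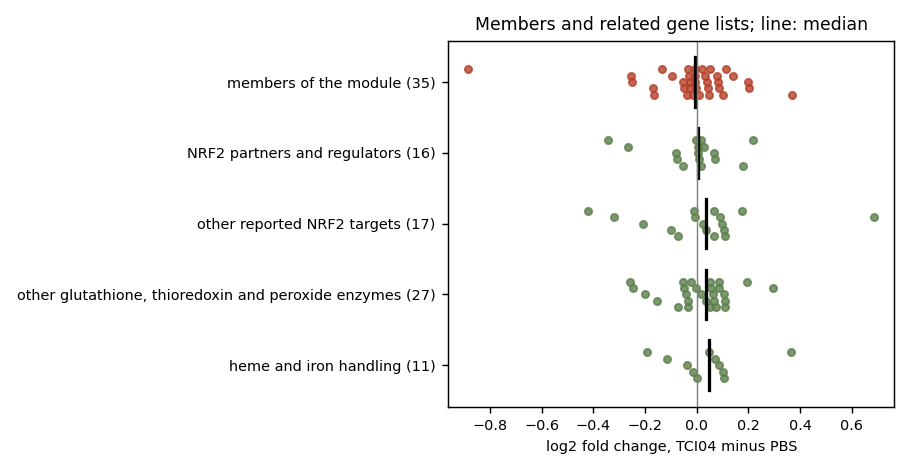
Log2 fold change (TCI04 minus PBS, horizontal axis) of each tested gene as a point, for the 35 members and for 4 related lists in rows, with the number of genes in brackets; vertical black lines are medians, from -0.0051 for the members to 0.049 for heme and iron handling. ABCC3 is the point farthest to the right and OSGIN1 the one farthest to the left.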

How the data were processed

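Total RNA was labelled with biotin and hybridised to Affymetrix arrays, per the labels' protocols. The authors' deposited table holds MAS5 intensity values, linear in scale, for each probe set on each array, per the submitters' processing notes. No MAS5 version, scan date or detection call stood in those sources. Platform annotation gave 1 gene symbol for 41091 of 54675 probe sets. The Entrez IDs of 41037 of these matched RefSeq, and 0 symbols changed.

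The 20th percentile of all values, 10.96, was added to each signal before taking log2. After removal of the 62 control probe sets and of those with a mean log2 value under the 40th percentile (a signal near 33.9), 32746 remained. They were compared with limma 3.58.1 under R 4.3.3, using lmFit and a trended eBayes (two-sided, TCI04 minus PBS, 10.5 degrees of freedom in total), with Benjamini-Hochberg adjustment over all 32746 probe sets and a threshold of 0.05. The steps were tested on simulated data. The number of arrays, 3 per group, limits the precision.

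The members and lists were chosen with earlier results of these data known. Every member may be named. By the rule for named genes, all 6 values are given for HMOX1, NQO1, GCLM, GCLC, TXNRD1, SRXN1, NFE2L2 and KEAP1, for members past the threshold or with groups that do not overlap, and for the 5 with the smallest p (FTL, TKT, OSGIN1, GCLM and PRDX1). Those of PGD, GSR, ITGAM, CD14, PECAM1, COL1A2 and second probe sets of members were added after their values were seen. From each related list the gene with the smallest p and the one with the highest mean are named. Cell type markers and list members were read from their brightest probe set. The alternatives changed the scaling, offset, filter, choice of probe set, variance model, replicate block and arrays.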

Additional observations from a re-analysis of the deposited data

How the results depend on the processing

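No member passed the adjusted threshold in limma under any of the 16 alternatives, with 0 to 4 members at an unadjusted p under 0.05. The count of 4 (11.4%) came with median centring, where 15.3% of all probe sets reached that p, and without PBS replicate 1, where 6.90% did. The replicate block and the fit without TCI04 replicate 2 gave 3 members each (8.57%), against 8.75% and 8.37% of all probe sets. Over all probe sets, the 1 call was lost with median centring (0), with eBayes without trend (0) and without any one of the 5 arrays other than TCI04 replicate 3 (0 to 1 with single arrays left out). The member median was 0.15 with median centring, where the median of all genes was 0.16, and -0.025 to 0.019 with single arrays left out. With the replicate block, 1 probe set and 0 members passed, and the smallest adjusted p of a member was 0.344 in limma. Same-numbered arrays correlated by 0.0036, 0.062 and 0.050 in their deviations from the group means, all under 0.1, so the numbers were not taken to pair them. TCI04 replicates 2 and 3 correlated best with their own number, the other pairs lying between -0.061 and 0.0092, while TCI04 replicate 1 gave 0.0047 with PBS replicate 2 and 0.0036 with its own. Of 546 member values under the alternatives, 488 kept their sign and 58 turned; 11 of 35 members kept it in all. With quantile normalization HMOX1 (0.029), ME1 (-0.0011), TXN (0.070), PRDX3 (0.0019) and PRDX4 (0.0077) turned. With median centring HMOX1 (0.13), TXNRD1 (0.14), TALDO1 (0.11), GSR (0.025), TXN (0.15), GPX1 (0.11), GSTP1 (0.13), MGST1 (0.12), PRDX1 (0.063), PRDX3 (0.15), PRDX4 (0.16), PRDX6 (0.13), SOD1 (0.14) and KEAP1 (0.15) turned, as the uniform shift of 0.16 makes them do. With probe sets averaged per gene GCLC (-0.025), TXNRD1 (0.10), ME1 (-0.25), PRDX2 (-0.030) and PRDX3 (0.081) turned, and without the _x_at and _s_at probe sets GCLC (-0.18) and MGST1 (0.26); the cause was not tested. Leaving out 1 array moved the log2 fold change by over 1.5 times or turned it for 34 of the 35 members, all but FTL. With single arrays left out, the log2 fold changes that turned ranged as follows: HMOX1 -0.11 to 0.031, NQO1 -0.015 to 0.050, GCLC -0.012 to 0.15, TXNRD1 -0.038 to 0.015, PIR -0.010 to 0.14, TALDO1 -0.13 to 0.022, PGD -0.33 to 0.12, AKR1B10 -0.069 to 0.50, AKR1C1 -0.12 to 0.23, TXN -0.030 to 0.017, GPX4 -0.0098 to 0.063, GSTP1 -0.11 to 0.018, PRDX2 -0.019 to 0.086, PRDX3 -0.045 to 0.040, PRDX4 -0.048 to 0.042, PRDX6 -0.060 to 0.0023, SOD1 -0.072 to 0.014, SOD2 -0.0043 to 0.11 and KEAP1 -0.085 to 0.076. No detection calls were at hand, so whether a dim signal such as that of OSGIN1 lies above background is unknown.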

Other observations

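Among the 17 tested genes of the list of other reported NRF2 targets, 6 had TCI04 and PBS arrays that did not overlap, against 13.6% of all genes. The 5 besides ABCC3 are named here after their values were seen. UGDH, which makes UDP-glucuronic acid, measured 3113, 2896 and 3235 with TCI04, against 2841, 2625 and 2719.9 with PBS. The fatty aldehyde dehydrogenase ALDH3A2 averaged 1889 ± 16.9 with TCI04 and 1749 ± 88.4 with PBS (SD, n = 3 each), and the biliverdin reductase BLVRB averaged 1302 ± 69.8 with TCI04 and 1216 ± 19.0 with PBS. Their log2 fold changes were 0.17, 0.11 and 0.097. Lower in every TCI04 array were SLC3A2, the heavy chain that carries SLC7A11 to the membrane, and the stress protein SESN2. SLC3A2 measured 1089.7, 1043 and 789.5 with TCI04, against 1209, 1239 and 1179 with PBS, a log2 fold change of -0.32, and TCI04 replicate 3 was again the lowest array. SESN2 measured 157, 141 and 134 with TCI04, against 213, 179.8 and 197 with PBS, a log2 fold change of -0.42. None passed the correction (limma, adjusted p = 0.697 for UGDH, SLC3A2 and SESN2, 0.722 for ALDH3A2 and 0.769 for BLVRB).

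FTH1, the ferritin heavy chain, was not read from its own symbol, but 1 probe set is annotated to its pseudogene FTH1P5, named here after its values were seen. It measured 26272, 21974 and 25588 with TCI04, against 25281, 23646 and 24491 with PBS, with overlapping groups. The log2 fold change was 0.0043 with an interval of -0.15 to 0.16.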
